A study of Mus musculus with 8 samples.

Results

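The classical protein tyrosine phosphatases are the enzymes that remove phosphate from tyrosine by a cysteine in a short conserved loop, the signature loop. In mouse they are named Ptpn, for cytosolic enzymes, and Ptpr, for mostly receptor-like ones that cross the membrane. The rule for members used the symbol alone (Ptpn followed by a number, or Ptpr followed by a letter and at most a number). The rule found 38 genes, 17 Ptpn and 21 Ptpr, among the 52143 rows and 51425 distinct symbols of the expression table, and no symbol was repeated.

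The samples were bulk RNA from mouse colon, 4 labelled Control and 4 labelled SiglecXII, called control and Siglec-XII here. Both groups carried Villin1-Cre-ERT, a tamoxifen-activated recombinase driven by the villin promoter in gut epithelium, and the Siglec-XII mice also carried a knocked-in human SIGLEC12 gene that recombination switches on. All were given tamoxifen (10 mg/ml) for 5 days from 8 weeks of age and were killed 7 days after the last dose, which is day 12 after the first. The design text names 3 mice for each condition, the methods describe technical replicate libraries, and the labels do not say which of the 4 samples in a group come from separate mice, so p-values measure only the spread between these samples. The villin promoter limits recombination to epithelium, whereas the colon samples also hold muscle, nerve, vessel and immune cells. SIGLEC12 itself was not analysed here.

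Tyrosine phosphatases set how long a signal from a tyrosine kinase lasts. Siglec receptors of the inhibitory kind carry tyrosine motifs in their tails, and when these are phosphorylated they recruit the SH2 domain phosphatases Ptpn6 (SHP-1) and Ptpn11 (SHP-2). Ptpn18 belongs to another branch, the PEST phosphatases, with Ptpn12 and Ptpn22. The question taken up is where these 3 stand in the family in colon, and whether the family differed between Siglec-XII and control colon.

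The signature loop is what makes these genes a family, and its coding bases are given for Ptpn18, its 2 fellow PEST phosphatases, the SH2 pair, the most abundant receptor and a member of known low activity. Each stretch is 33 bases of coding sequence (11 codons) on the coding strand of GENCODE M21 transcripts, mouse build GRCm38, with the codon of the conserved cysteine of the loop in capitals. A match to the loop does not show that a domain is active. The Ptpn18 stretch lies between chr1:34470332-34471514 (plus strand), the Ptpn6 stretch between chr6:124722057-124724967 (minus strand) and the Ptpn11 stretch between chr5:121143608-121144540 (minus strand). In all 3 it starts in one exon and ends in the next, so the intron between them is left out.
Ptpn18: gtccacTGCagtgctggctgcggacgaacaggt
Ptpn12: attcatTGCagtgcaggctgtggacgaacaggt
Ptpn22: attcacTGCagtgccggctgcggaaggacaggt
Ptpn6: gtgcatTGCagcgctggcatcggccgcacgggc
Ptpn11: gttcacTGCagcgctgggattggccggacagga
Ptprf, membrane-proximal domain: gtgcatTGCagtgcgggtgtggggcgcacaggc
Ptprf, distal domain: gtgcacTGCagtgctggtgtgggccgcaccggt
Ptprn: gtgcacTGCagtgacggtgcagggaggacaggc
Ptpn6 and Ptpn11 differed at 7 of these bases and at 0 of the coded residues. Ptpn12 and Ptpn22 each differed from Ptpn18 at 5 bases and 1 residue, Ptpn6 and Ptpn11 each at 9 bases and 1 residue, and Ptprn, an islet antigen receptor known to lack ordinary phosphatase activity, at 11 bases and 2 residues. Of the 36 members whose coding sequence was read, 27 held 1 match to the loop and 9 held 2, in a membrane-proximal and a distal phosphatase domain. Those 9, all receptors, were Ptpra, Ptprd, Ptpre, Ptprf, Ptprk, Ptprm, Ptprs, Ptprt and Ptpru.

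In control colon the family was led by the receptor Ptprf, and Ptpn18 was its most abundant cytosolic member. Levels are in TPM, the share of all transcripts of a sample scaled to transcript length and to a fixed total, so that genes can be set side by side. Ptprf (LAR, a receptor of cell-cell and cell-matrix contacts) was at 59.1, 68.1, 72.6 and 66.3 TPM in controls 1 to 4. It was the highest member in every control sample, and its range did not overlap that of the next member. Ptpn18 (chr1:34459762-34475733, plus strand) was at 31.9, 39.5, 40.0 and 39.2 TPM in the same samples, a mean of 37.6 ± 3.86 (SD, n = 4). It ranked 2 by mean, and was in place 2 or 3 in each control sample.

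Ptpn11 (chr5:121130533-121191397, minus strand), the SH2 phosphatase that mostly promotes growth factor signalling, was at 17.2, 18.9, 20.1 and 19.3 TPM in controls 1 to 4, a mean of 18.9 ± 1.20 (SD, n = 4) and place 11. Ptpn6 (chr6:124720707-124738714, minus strand), the SH2 phosphatase best known from blood cells, was at 12.3, 15.2, 15.2 and 15.7 TPM, a mean of 14.6 ± 1.54 (SD, n = 4) and place 13. By mean, both stood below the 10 highest members and above most of the family. In controls 1 to 4 Ptpn11 took places 8, 11, 11 and 11, and Ptpn6 places 13, 14, 12 and 12. The ratio of Ptpn18 to Ptpn11 TPM averaged 1.99 ± 0.10 and that of Ptpn18 to Ptpn6 2.59 ± 0.0541 (SD, n = 4) in controls. Ptpn18 was above both in every control sample.

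The other 8 of the 10 highest members lay between 21.1 and 35.4 TPM. They were Ptprk, a homophilic adhesion receptor, at 35.4 TPM, Ptprh (SAP-1), a phosphatase of intestinal microvilli, at 31.5 TPM, Ptpra, an activator of Src kinases, at 29.6 TPM, and Ptpn2, which acts on JAK and STAT proteins, at 26.5 TPM. Ptpn3, a FERM and PDZ domain enzyme, followed at 26.0 TPM, Ptprj (DEP-1) at 22.9 TPM, Ptprr, which binds MAP kinases, at 22.6 TPM, and Ptpn9, a phosphatase of secretory vesicles, at 21.1 TPM. Their order was loose. Of the 37 pairs of neighbours in the control order, 4 had ranges that did not overlap (Ptprf over Ptpn18, Ptpre over Ptpn4, Ptprb over Ptprq and Ptprq over Ptpn20), and 10 kept their order in all 4 control samples.

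**Figure D1:**
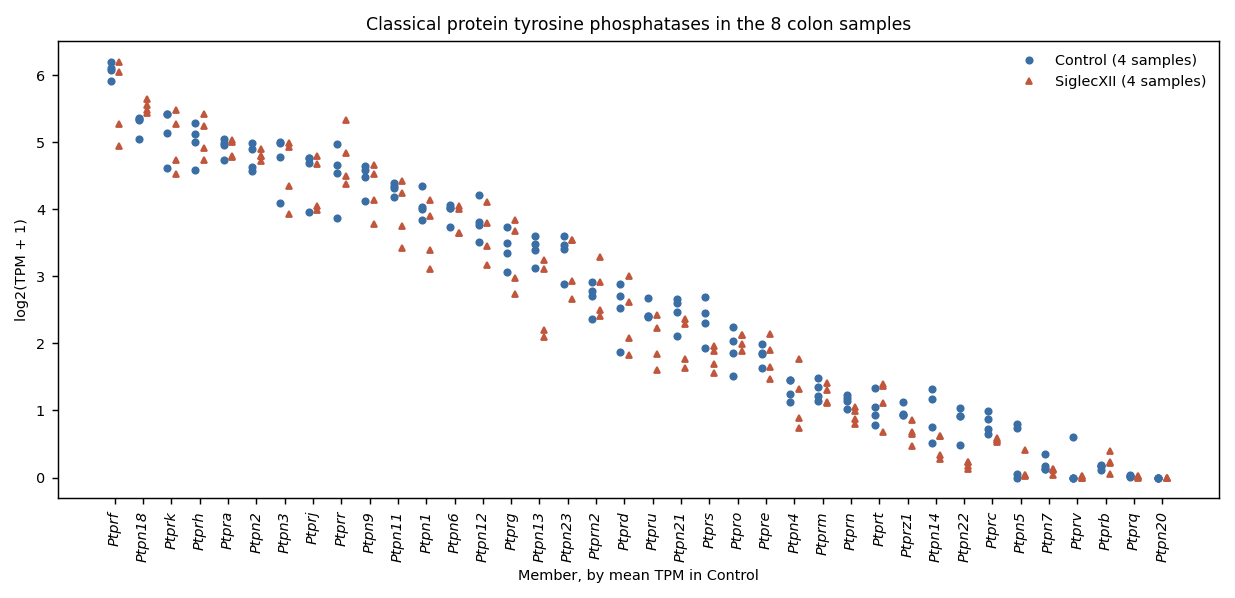
Levels of the 38 members on the log2(TPM + 1) scale (vertical axis), ordered by control mean (horizontal axis), with circles for the 4 control and triangles for the 4 Siglec-XII samples. Ptprf leads in every control sample, Ptpn18 is the member whose Siglec-XII points all lie above its control points, and the 10 members at the right had control means under 1 TPM.

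By mean TPM in control, 10 members were at 20 or more, 8 at 5 to 20, 10 at 1 to 5 and 10 under 1. The middle band held Ptpn11, Ptpn6, Ptpn1 (PTP1B, of the insulin and leptin receptors, 15.7 TPM), Ptpn12 (13.4 TPM), Ptprg (9.79 TPM), Ptpn13 (9.61 TPM), Ptpn23, a protein of endosomal sorting, at 9.28 TPM, and Ptprn2 at 5.54 TPM. The band of 1 to 5 TPM held Ptprd (4.84 TPM), Ptpru (4.58 TPM), Ptpn21 (4.57 TPM), Ptprs (4.16 TPM), Ptpro (2.83 TPM), Ptpre (2.57 TPM), Ptpn4 (1.51 TPM), Ptprm (1.47 TPM), Ptprn (1.22 TPM) and Ptprt (1.06 TPM). The band under 1 TPM held several members known from brain, ear, bone, vessel or blood cells: Ptprz1 at 0.987 TPM, Ptpn22 at 0.808 TPM, Ptprc (CD45) at 0.761 TPM, Ptpn5 at 0.359 TPM, Ptpn7 at 0.147 TPM, Ptprv at 0.129 TPM, Ptprb at 0.117 TPM and Ptprq at 0.0172 TPM. Ptpn14, a FERM domain enzyme, was also under 1, at 0.968 TPM, and Ptpn20 was listed at 0 in all 8 samples. Not all members known from such cells were this low, since Ptpn6 (blood cells) and Ptprs (neurons) stood in the higher bands.

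The tissue label was matched by its markers. The summed TPM of 10 epithelial genes ran from 12650 to 16990 in control and from 14180 to 17300 in Siglec-XII, against 15.5 to 41.5 and 13.7 to 15.1 for 10 leukocyte genes, 698 to 1105 and 333 to 713 for smooth muscle, 9.05 to 16.7 and 7.58 to 8.35 for enteric neurons and glia, 3.62 to 7.81 and 3.98 to 5.58 for endothelium, and 436 to 558 and 370 to 495 for enteroendocrine cells. The leukocyte and the neural sums were lower in every Siglec-XII than in every control sample, the leukocyte sums only narrowly (15.1 against 15.5). Of their tested markers, 3 of 5 for leukocytes and 1 of 4 for neurons and glia were lower at an unadjusted P of at most 0.05. The smooth muscle sums overlapped narrowly, with 10 of 10 markers below 0 (median difference -0.66 log2). At the same P 5 of them were lower, where 7.67% of all tested genes were. Without Siglec-XII samples 3 and 4 their median was -0.37 and 3 were lower, where 1.57% of all tested genes were. Siglec-XII samples 3 and 4 stood apart from the rest on the first principal component of all tested genes (36.2 and 50.2, against -29.0 to -4.80 in the other 6, 40.3% of the variance). The values of members that rest on them are therefore given with and without them. On the second component control 1 stood apart (47.7, against -22.8 to 16.4 in the others). In bulk tissue, fewer cells of a type and less RNA per cell cannot be told apart.

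No member passed the test between the groups. The fit (limma on log2(TPM + 1), 13164 genes with at least 1 TPM in at least 4 samples, Benjamini-Hochberg adjustment over all of them) took in 28 members, and 0 had an adjusted p of at most 0.05, against 0.038% of all tested genes. Each of the 28 reached 1 TPM in at least 1 Siglec-XII sample. Ptprn did so only in Siglec-XII sample 1 (1.075 TPM), beside all 4 controls, which meet the filter by themselves. At an unadjusted P of at most 0.05, 1 member was higher in Siglec-XII (Ptpn18), where 1.19% of all tested genes were, and 3 were lower (Ptpn13, Ptprs and Ptpru), where 7.67% were. The groups did not overlap in 1 tested member on the higher side, Ptpn18, against 1.05% of all tested genes, and in 0 on the lower side, against 4.06%. The 3 lower of 28 lay near the background share. Without Siglec-XII samples 3 and 4, 0 members were higher and 0 lower at that P, where 1.18 and 1.57% of all tested genes were. In that subset 21 members were above 0 and 7 below, with a median of 0.096, against 0.003 over all tested genes.

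In the fit of all 8 samples, the differences of the members were spread much like those of all genes. Of the 28, 7 were above 0 and 21 below, with a median of -0.15 (log2, Siglec-XII minus control), and over all tested genes 2888 were above and 10276 below, also with a median of -0.15. Relative to that median, 15 members were above and 13 below. Centring each sample on its median, which shifts every gene by the same amount, gave 20 above 0 and 8 below, so no direction can be given for the family as a whole.

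In the main fit of all 8 samples, Ptpn18 was the member with the largest difference toward higher values. Its level was 48.9, 42.3, 45.9 and 43.6 TPM in Siglec-XII samples 1 to 4, against 31.9 to 40.0 TPM in the controls. The 2 groups did not overlap, and control 1 was the lowest, well below the other three controls, which lay within 39.2 to 40.0 TPM. The difference was 0.26 ± 0.104 (SE) on the log2(TPM + 1) scale, with a 95% interval of 0.03 to 0.50 (exact permutation p = 0.0286, two-sided; adjusted p = 0.515, limma). That permutation p is the smallest that 4 samples against 4 allow. Without Siglec-XII samples 3 and 4 it was 0.27 (adjusted p = 0.991, limma), and with median centring 0.47 (adjusted p = 0.459, limma). It was 0.15 with array weights, which give less weight to the more variable samples, and 0.19 without control 1 (adjusted p = 0.371 and 0.447, limma). The weights of Siglec-XII samples 1 to 4 were 1.18, 6.87, 0.411 and 0.187, so the weighted values of that group rest mostly on sample 2. Without Siglec-XII samples 3 and 4, the differences of Ptprn2 (0.41), Ptprg (0.35), Ptprh (0.33) and Ptprd (0.31) were larger than that of Ptpn18. With array weights, those of Ptprh (0.23), Ptpre (0.18), Ptprn2 (0.17) and Ptprg (0.16) were larger. With quantile normalization, which gives every sample the same distribution of values, that of Ptprr was (0.41 against 0.39). The place of Ptpn18 at the head of the family thus held in the main fit and not in these alternatives.

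Ptpn6 did not separate the groups. It was at 15.1, 15.5, 11.5 and 11.5 TPM in Siglec-XII samples 1 to 4, so that samples 1 and 2 lay within the control range and samples 3 and 4 below the lowest control. The difference was -0.12 ± 0.143 (SE), with a 95% interval of -0.44 to 0.20 (exact permutation p = 0.257; adjusted p = 0.687, limma). It was 0.07 without Siglec-XII samples 3 and 4 and 0.09 with median centring, so no direction can be given.

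Ptpn11 was at 20.4, 18, 12.4 and 9.68 TPM in Siglec-XII samples 1 to 4. Sample 1 was above every control, sample 2 was within their range and samples 3 and 4 were below it. The difference was -0.35 ± 0.211 (SE), with a 95% interval of -0.83 to 0.12 (exact permutation p = 0.286; adjusted p = 0.515, limma), and without samples 3 and 4 it was 0.02. The intervals of the 2 SH2 phosphatases leave room for differences of either sign.

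**Figure D2:**
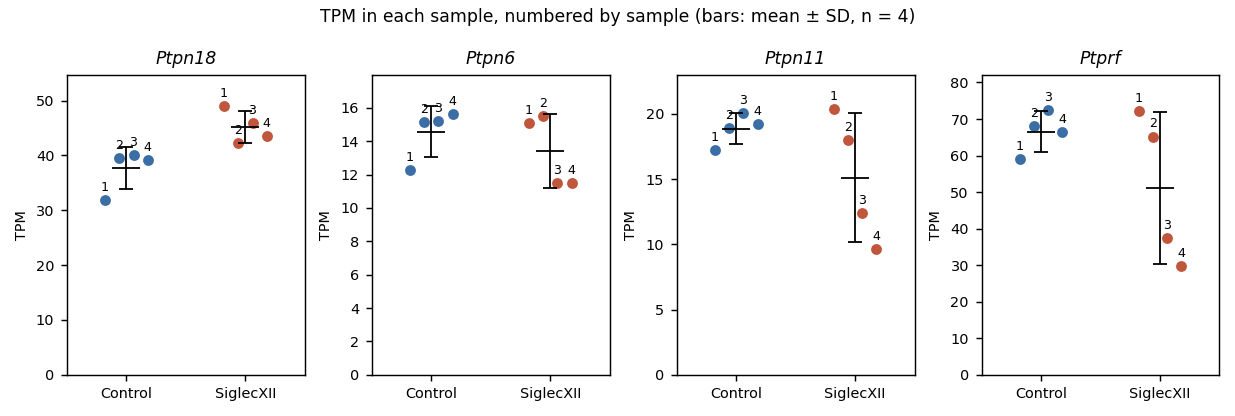
TPM (vertical axis) of Ptpn18, Ptpn6, Ptpn11 and Ptprf in each sample, points numbered by sample within the control and Siglec-XII groups, with bars for mean ± SD (n = 4). Ptpn18 is higher in all 4 Siglec-XII samples, while Siglec-XII samples 3 and 4 are the low points of the other 3 genes.

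As a share of the family, Ptpn18 was higher in Siglec-XII. It made up 8.74, 8.15, 8.43 and 8.26% of the summed TPM of the 38 members in controls 1 to 4, and 9.78, 8.83, 13.2 and 13.1% in Siglec-XII samples 1 to 4. All 4 Siglec-XII shares were above all 4 control shares, and the 2 largest came from Siglec-XII samples 3 and 4. The family summed to 500.0, 479.8, 347.5 and 331.9 TPM in Siglec-XII samples 1 to 4, so the larger shares of samples 3 and 4 went with smaller sums. The rank of Ptpn18 was 2, 3, 3 and 2 in controls and 2, 2, 1 and 1 in Siglec-XII samples 1 to 4, which overlap. It passed Ptprf only in Siglec-XII samples 3 and 4 (1.23 and 1.47 times the TPM of Ptprf, against 0.540 to 0.592 in controls).

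The ratio of Ptpn18 to Ptpn11 TPM was 2.40, 2.35, 3.70 and 4.51 in Siglec-XII samples 1 to 4, and 1.85 to 2.08 in controls. The groups did not overlap. The ratio of Ptpn18 to Ptpn6 was 3.24, 2.73, 4.0 and 3.79, against 2.51 to 2.64 in controls, also without overlap. For Ptpn11 to Ptpn6, the SH2 pair, it was 1.35, 1.16, 1.08 and 0.841, against 1.23 to 1.40, and the groups overlapped. These shares and ratios are descriptions with no test.

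**Figure D3:**
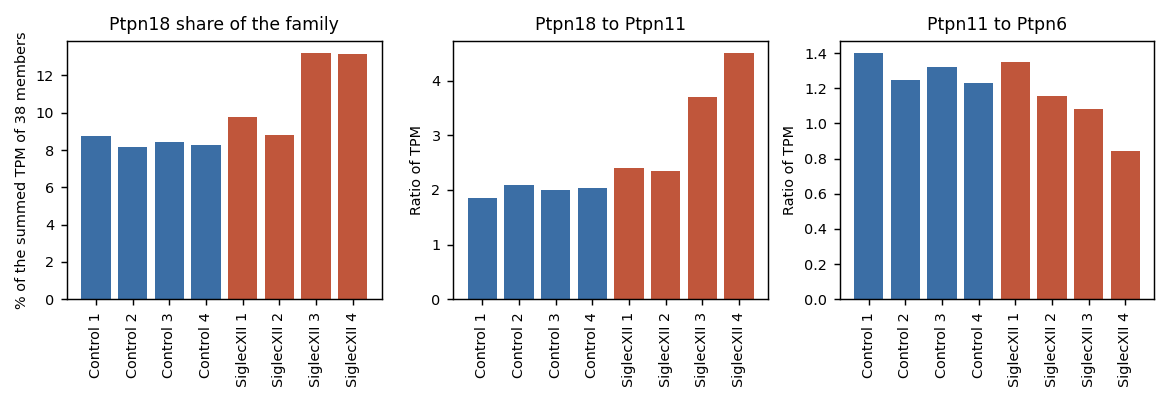
Share of Ptpn18 in the summed TPM of the 38 members (%) and ratios of TPM of Ptpn18 to Ptpn11 and of Ptpn11 to Ptpn6 (vertical axes) in each of the 8 samples (bars, control blue, Siglec-XII red). The Ptpn18 share and its ratio to Ptpn11 lie above the whole control range in samples 1 to 4 of Siglec-XII, most of all in samples 3 and 4, and the ratio of Ptpn11 to Ptpn6 overlaps.

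Among the other PEST phosphatases, Ptpn12, which acts on focal adhesion proteins, was at 8.0 to 16.3 TPM in Siglec-XII and 10.4 to 17.6 TPM in control, with a difference of -0.19, and 0.13 without Siglec-XII samples 3 and 4. Ptpn22, which restrains antigen receptor signalling in lymphocytes, was at 0.883, 1.06, 0.396 and 0.897 TPM in controls 1 to 4 and at 0.179, 0.129, 0.173 and 0.0877 TPM in Siglec-XII samples 1 to 4. Its groups did not overlap. It was too low for the main fit, and its P without a filter was 0.00174 with an adjusted p of 1 (limma).

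Of the 10 members that were not tested, 6 had a value above 0 in all samples, and in 3 of these (Ptpn22, Ptprz1 and Ptprc) the groups did not overlap, all lower in Siglec-XII. Among all 5318 rows below the filter with a value above 0 in all samples, 4.85% were lower without overlap and 0.602% higher. Ptprc, the CD45 of all nucleated blood cells, was at 0.983, 0.649, 0.836 and 0.575 TPM in controls 1 to 4 and at 0.446, 0.474, 0.499 and 0.472 TPM in Siglec-XII. Ptprz1, a phosphatase of glia, was at 0.915, 0.932, 0.909 and 1.19 TPM in controls and at 0.594, 0.820, 0.564 and 0.385 TPM in Siglec-XII. Ptpn7, an enzyme of T cells, was at 0.0874 to 0.279 TPM in control and 0.0301 to 0.0966 TPM in Siglec-XII, with overlap. Ptpn14 was at 0.436 to 1.5 TPM in control and 0.208 to 0.543 TPM in Siglec-XII, and Ptpn5, an enzyme of neurons, at 0 to 0.740 and 0.0171 to 0.336 TPM, both with overlap. The leukocyte marker sum, which goes with Ptprc, Ptpn22 and Ptpn7, and the neural one, which goes with Ptprz1, were themselves lower in every Siglec-XII sample, and their part in these values was not tested. Ptprb, the phosphatase of vessel endothelium, was at 0.0837 to 0.133 TPM in control and 0.0351 to 0.319 TPM in Siglec-XII, and of the endothelial markers Kdr, Tek, Robo4 and Flt1 were near 0 in all samples.

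Ptpn13, Ptprs and Ptpru were the members lower at an unadjusted P. Ptpn13, a large FERM and PDZ domain scaffold, was at 11.1, 9.49, 7.72 and 10.1 TPM in controls and at 8.49, 7.62, 3.59 and 3.26 TPM in Siglec-XII samples 1 to 4. The groups overlapped by the first Siglec-XII sample, and samples 3 and 4 were the low ones. Its difference was -0.74 ± 0.277 (SE, exact permutation p = 0.0571, adjusted p = 0.515, limma), the largest of the family toward lower values, and -0.22 without those samples.

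Ptprs, a receptor for heparan and chondroitin sulphate proteoglycans known from neurons, was at 5.43, 3.92, 2.82 and 4.47 TPM in controls and at 2.90, 2.68, 2.24 and 1.94 TPM in Siglec-XII. All Siglec-XII samples but the first lay below every control. The difference was -0.57 ± 0.184 (SE, exact permutation p = 0.0571, adjusted p = 0.515, limma), and -0.42 without samples 3 and 4. The summed neural markers were below every control in all 4 Siglec-XII samples (8.18, 7.58, 8.35 and 8.33 TPM in samples 1 to 4). Their part in the Ptprs values was not tested.

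Ptpru, a MAM domain adhesion receptor, was at 4.33, 5.37, 4.28 and 4.33 TPM in controls and at 4.39, 3.69, 2.58 and 2.03 TPM in Siglec-XII. Its first Siglec-XII sample was within the control range and the other three were below it. The difference was -0.45 ± 0.194 (SE, exact permutation p = 0.114, adjusted p = 0.515, limma), and -0.15 without samples 3 and 4.

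**Figure D4:**
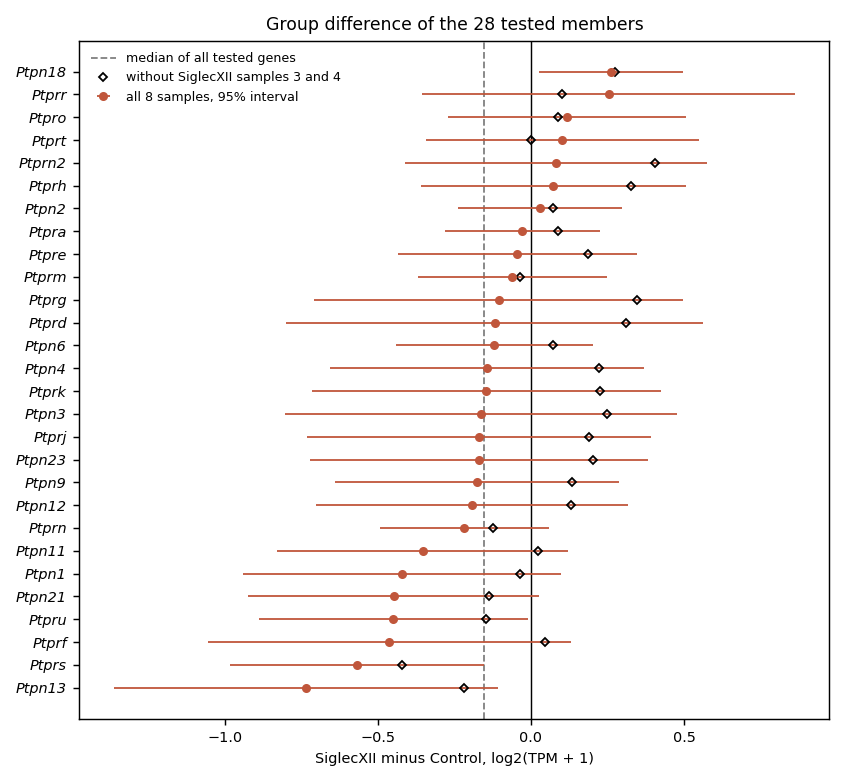
Difference between Siglec-XII and control (horizontal axis, log2(TPM + 1)) for the 28 tested members (vertical axis), filled points with 95% intervals from all 8 samples and open diamonds without Siglec-XII samples 3 and 4; the dashed line marks the median of all tested genes, -0.15. Ptpn18 has the largest filled point, 0.26, and a diamond at 0.27, which those of Ptprn2, Ptprg, Ptprh and Ptprd exceed, whereas Ptprf goes from -0.46 to 0.05.

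The other receptors varied mostly with the individual samples. Ptprf was at 72.1, 65.2, 37.4 and 29.7 TPM in Siglec-XII samples 1 to 4, so samples 1 and 2 lay within the control range and samples 3 and 4 far below it. Its difference was -0.46 ± 0.262 (SE, exact permutation p = 0.257, adjusted p = 0.515, limma), and 0.05 without samples 3 and 4. Ptprr was at 19.9, 27.7, 21.7 and 39.2 TPM in Siglec-XII and 13.6 to 30.5 TPM in control, with a difference of 0.25 ± 0.269 (SE, exact permutation p = 0.457), 0.10 without samples 3 and 4, and in Siglec-XII sample 4 it was the member in place 2. Ptpro, whose difference was 0.12, and 0.09 without samples 3 and 4, completed the 3 largest toward higher values. Ptprn2 and Ptprn, proteins of hormone granules, differed by 0.08 and -0.22 (exact permutation p = 0.714 and 0.0571), and by 0.41 and -0.12 without samples 3 and 4. The enteroendocrine marker sums overlapped between the groups.

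By class, the LAR receptors took 16.8% of the summed TPM of the family in control, the fibronectin type III receptors 12.8%, the PEST phosphatases 11.5%, the FERM phosphatases 9.49%, the MAM receptors 9.45%, PTP1B with TC-PTP 9.40% and the SH2 phosphatases 7.44%. In none of these 7 classes did the summed TPM of the groups separate. The PEST sum was 51.8 ± 6.24 TPM in control and 57.1 ± 5.84 TPM in Siglec-XII, and the SH2 sum was 33.4 ± 2.67 and 28.5 ± 7.05 TPM (SD, n = 4). The family as a whole summed to 450 ± 56.8 TPM in control and 415 ± 87.3 TPM in Siglec-XII (SD, n = 4), with 44.9% of it from the Ptpn members in both groups.

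Sample by sample, 0, 6, 12 and 19 of the 28 tested members were below the lowest control in Siglec-XII samples 1 to 4, and 9, 5, 2 and 2 were above the highest control. Over all tested genes the shares were 14.5, 16.4, 50.3 and 61.3% below and 21.7, 11.7, 7.95 and 8.05% above. The counts below the lowest control stood in the same order over the 4 samples as the shares of all genes. Siglec-XII sample 4 was the lowest of all 8 samples in 17 members and control 1 in 7, and control 1 was the lowest control in 23 of 28.

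**Figure D5:**
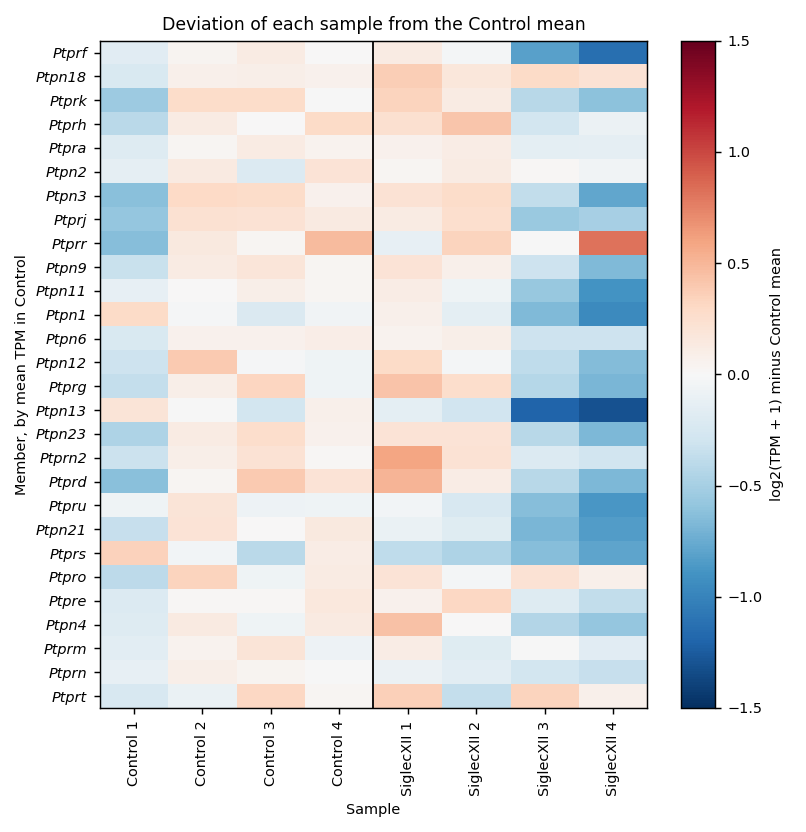
Deviation of each sample from the control mean (colour, log2(TPM + 1), blue low and red high) for the 28 tested members (vertical axis, by control level) in the 8 samples (horizontal axis). Control 1 and Siglec-XII samples 3 and 4 are mostly blue, that is low, whereas the Ptpn18 row is red in all 4 Siglec-XII samples.

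The partners of these enzymes were read from the same fit. Of 30 docking proteins for the SH2 phosphatases, 9 were tested, and at an unadjusted P of at most 0.05 0 were higher and 3 lower, with a median of -0.26, where 1.19 and 7.67% of all tested genes were higher and lower. Without Siglec-XII samples 3 and 4, 0 were higher and 1 lower (Pecam1), with a median of -0.06. The 3 were Pecam1, an adhesion receptor of vessels and blood cells, with -0.59, Sirpa, the receptor for CD47, with -0.84, and Gab1, an adaptor that binds Ptpn11, with -0.57. Without those samples the 3 values were -0.55, -0.73 and -0.19. Each had an adjusted p of 0.515 by limma and groups that did not overlap, as 4.06% of all tested genes had on the lower side. Pecam1 and Sirpa are also genes of blood cells, whose summed markers were lower, and their part in these values was not tested. Ceacam1, an epithelial receptor that binds both SH2 phosphatases, was the most abundant docking protein at 628 ± 70.8 TPM in control (SD, n = 4) and differed by -0.13 (exact permutation p = 0.657), or 0.28 without those samples. Of 32 cytosolic tyrosine kinases, the enzymes that these phosphatases oppose or switch on, 23 were tested and 0 were higher and 0 lower at that limit, with a median of -0.13, or 0 and 0 with a median of 0.12 without Siglec-XII samples 3 and 4. Csk and Src were at 66.0 and 53.5 TPM in control.

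Reads can be shared between genes. Of the stretches of 31 bases in the Ptpn18 transcripts, 8.47% also occur in other genes, 5.41% in the antisense gene Gm28417, which reached 0.840 TPM at most. For Ptpn6 it was 5.78%, all in Gm20531 (0.175 TPM at most), and for Ptpn11 0.213%. Since the strand setting of the quantification is not given in the sources used here, reads of Ptpn18 and Gm28417 cannot be told apart with certainty.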

How the data were processed

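Bulk RNA-seq of mouse colon was analysed, 4 control and 4 Siglec-XII samples. Per the labels, total RNA libraries were sequenced in pairs, whereas the study's methods name a kit for mRNA. The submitters' processing notes name kallisto 0.45.0 and GRCm38, and the methods another kallisto version and a human reference. The authors deposited 1 table of log2(TPM + 1) per gene. TPM keeps no read depth, so no counting interval is given and depth is unknown. Counts and DESeq2, which the methods name, were not used here. No 2 samples held identical values.

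Values were converted back to TPM for levels and ranks. Groups were compared on the deposited log2 values with limma 3.58.1 (lmFit, eBayes with trend, R 4.3.3), for genes with at least 1 TPM in at least 4 samples, with Benjamini-Hochberg adjustment over 13164 genes. A 2-sided exact permutation test over the samples was run for single genes. The script was tested on simulated data. Fold changes on the log2(TPM + 1) scale understate low genes. Identifiers were matched to GENCODE M21 (51250 of 52143 and 38 of 38 members), from which loop sequences were read, except for Ptpn2, which was not read, and Ptprv, which has no annotated coding sequence. Figures used matplotlib 3.10.9 in Python 3.11.15.

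Genes named were Ptpn6, Ptpn11 and Ptpn18, the 10 highest members in control, those with an unadjusted P of at most 0.05 or with groups that did not overlap, the 3 largest differences in each direction, the rest by class, and up to 3 genes per direction of each partner list. Members and lists were chosen with earlier results of these data known. Alternatives were no filter, a filter at 5 TPM, a pseudocount of 0.1, median centring, quantile normalization, array weights, a replicate block, leaving out each sample, and leaving out Siglec-XII samples 3 and 4.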

Additional observations from a re-analysis of the deposited data

Results flagged for a closer look

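Within each group of 4, a sample was singled out where its gap to the nearest other sample took up more of the range on the log2(TPM + 1) scale than Dixon's 95% critical value for 4 samples. Over 86 such groups there were 9 flags, and chance gives about 1 in 20 groups, or 4.30 here. Control 1 was the low sample for Ptpn18 (0.916 of the range), Ptprj (0.894) and Ptpn6 (0.870). For the first of these, the spread of the controls therefore comes mostly from 1 sample. Without control 1 the higher count of members at an unadjusted P is 0, where 0.942% of all tested genes were higher. Control 2 was high for Ptpru (0.949), control 4 for Ptprz1 (0.911) and for Ptprv (1.0, since the other 3 controls were listed at 0), and Siglec-XII sample 2 was high for Ptpn5 (0.976). Siglec-XII sample 4 was low for the summed smooth muscle markers (0.8293) and high for the summed endothelial markers (0.857).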

How the results depend on the processing

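No member had an adjusted p of at most 0.05 under any of the 16 alternatives. The adjusted p (limma) of Ptpn18 ran from 0.297 to 1, that of Ptpn6 from 0.475 to 1 and that of Ptpn11 from 0.270 to 1. The difference of Ptpn18 stayed above 0 throughout (0.15 to 0.47), with an unadjusted P of at most 0.05 in 10 of 16. That of Ptpn6 turned to 0.0932 with median centring, 0.0825 with quantile normalization, 0.0021 with array weights and 0.0731 without Siglec-XII samples 3 and 4, and that of Ptpn11 to 0.0228 without these samples. With array weights, the values of the Siglec-XII group rest mostly on sample 2, whose weight was 6.87. The count of members lower at an unadjusted P, 3 in the report, was 7 without a filter (which admits all 38), 1 with a filter at 5 TPM, 1 with median centring, 1 with quantile normalization and 0 without Siglec-XII samples 3 and 4, and leaving out 1 sample gave 1 to 7: 7 without Siglec-XII sample 1, and 1 without control 4, Siglec-XII sample 3 or Siglec-XII sample 4. The count of members higher, 1 in the report, was 0 with array weights, 0 without Siglec-XII samples 3 and 4, and 0 to 1 when 1 sample was left out, at 0 without control 1, Siglec-XII sample 1 or Siglec-XII sample 3. Of all tested genes, 1.19% were higher at that P in the report and 3.28% with array weights. That share was 0.942% without control 1, 1.38% without Siglec-XII sample 1 and 0.737% without Siglec-XII sample 3. It was 1.18% without Siglec-XII samples 3 and 4. The share of all tested genes lower at that P moved too, from 7.67% in the report to 16.6% without Siglec-XII sample 1, 3.91% without control 4, 2.93% without Siglec-XII sample 3, 3.18% without Siglec-XII sample 4, 1.57% without both of these, 3.26% without a filter and 6.14% with a filter at 5 TPM. Quantile normalization gave 19 tested members above 0 and 9 below, and median centring 20 and 8. Across all tested genes, genes higher and lower at that P numbered 157 and 1010 in the report, 1137 and 285 with median centring, and 704 and 408 with quantile normalization. The cause was not tested. The median difference of the members ran from -0.29 to 0.00 when 1 sample was left out. The rank of Ptpn6 in control was 12 to 13 when 1 control was left out.

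Samples with the same number did not deviate together (r = -0.165, -0.204, 0.103 and -0.00249 for numbers 1 to 4), so the numbers were not taken to pair the samples. With the replicate number as a block, 0 members were higher and 2 lower at an unadjusted P of at most 0.05. Of all tested genes, 0.99% were higher and 6.19% lower in that setting.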
